A study of Mus musculus with 20 samples.

Results

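Serotonin (5-HT) neurons of wild-type C57BL/6 mice were compared between an early embryonic stage, E11.5, and postnatal days 1 to 3 (PN). The comparison used 6 of the 20 samples of the series, 3 libraries of each stage, chosen by their stage and genotype labels, and all 22542 genes of the deposited expression matrix that had no failed estimate, of which 11077 were high enough to be tested. The other samples, which include a later embryonic stage and Pet-1 knockouts, were not compared here. Both groups were wild type for Pet-1 and carried the fluorescent protein EYFP in their 5-HT neurons, and EYFP-positive cells were sorted by flow cytometry. The labels name the transgene as ePet-EYFP only for the embryos of a chromatin experiment, and the promoter behind EYFP in the sorted animals is not stated there. At both stages the RNA was amplified with a Clontech SMARTer Ultra-low kit. Values are FPKM, fragment numbers scaled to transcript length and to the mapped fragments of the library. The labels do not say that the 3 libraries of a stage came from separate animals, so p-values measure only the spread between these libraries, which may be technical. The matrix columns name a stage but no replicate, and the libraries are called a, b and c within each stage.

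Serotonin neurons arise in the ventral hindbrain, leave the cell cycle, and then extend axons through most of the brain and spinal cord. Their identity rests on a network of transcription factors that includes Pet-1 (encoded by Fev), Lmx1b, Gata2 and Gata3, which activates the genes that make, package and recover serotonin. After birth the neurons take on mature firing, which depends on ion channels, on receptors for the inputs they receive and on the release machinery of their terminals.

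The libraries separated by stage. The first principal component of the 11077 genes tested took 62.04% of the variance, with the E11.5 libraries between -83.22 and -55.73 and the PN libraries between 63.33 and 70. FPKM summed to between 640971 and 919994 per library. Between 9607 and 10204 genes reached 1 FPKM at E11.5, and between 10838 and 11275 in PN. Among the 22542 genes with no failed estimate, the 100 highest held 36.76 to 38.44% of the FPKM at E11.5 and 27.88 to 30.15% in PN. The 14 genes with a failed estimate, which include Actb, Tuba1a and Tubb3, are in the FPKM sums but not in these shares. The files give no read numbers, so depth is unknown and no counting error can be given. The defining markers of serotonin neurons, Tph2, Slc6a4, Fev, Slc18a2, Ddc and Gata3, were present in all 6 libraries. PN library b stood apart in transcripts of other cells: its microglia and blood list summed to 1809 FPKM, against 248.6 and 243.8 in PN a and c and 14.51 to 17.16 at E11.5. In bulk RNA fewer cells of a type and less RNA per cell cannot be told apart. Results on those lists are given with and without PN b.

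Of the 11077 genes tested, 2769 (25.0%) changed between the stages, 1752 of them higher in PN (15.8%) and 1017 lower (9.18%). A gene was tested when it reached 1 FPKM in at least 3 of the 6 libraries. It was called when limma on log2(FPKM + 1) gave a Benjamini-Hochberg adjusted p below 0.05 and a change of at least 1.5-fold on that scale, which understates the change of low genes. All log2 changes below are PN minus E11.5 on this scale. The median over all genes tested was 0.06. With libraries scaled to a common upper quartile it was 0.28 and the calls were 2231 higher and 766 lower, so 74.4% of calls were higher instead of 63.3%. Leaving out PN a, b or c gave 638, 657 and 643 genes lower. Of the genes called higher, 625 were below 1 FPKM in every E11.5 library, and 137 of those called lower were below 1 FPKM in every PN library. Such genes could enter the test only through the stage where they were high. Groups did not overlap for 40.7% of the genes tested.

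**Figure D1:**
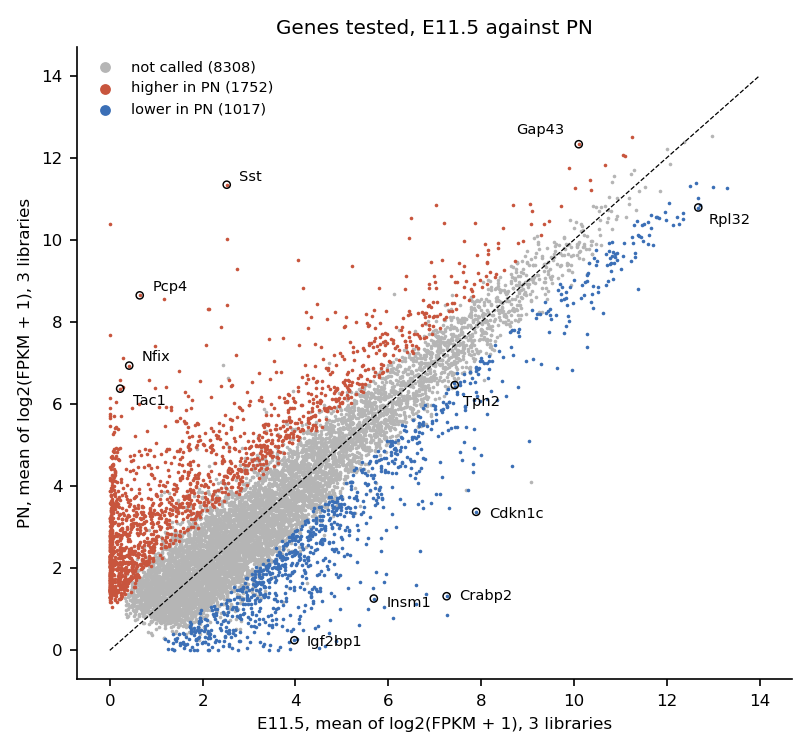
Mean log2(FPKM + 1) over the 3 PN libraries (vertical axis) against that over the 3 E11.5 libraries (horizontal axis), with 1 point per gene tested and the dashed line marking equal levels. The 1752 genes called higher in PN (red) and the 1017 called lower (blue) lie on either side of the 8308 genes not called (grey); circled genes are named.

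Of the genes that make and handle serotonin, 2 passed the test between the stages. Among 16 tested members, 0 rose and 2 fell, and their median log2 change was -0.37. A further member, Tph1, did not pass the filter. Tph2, the brain's tryptophan hydroxylase, which sets the rate of serotonin synthesis, stood at 145, 114 and 305 FPKM at E11.5 and 71.6, 133 and 69.8 FPKM in PN. The ranges overlapped, with PN b above E11.5 b, and the gene did not pass (log2 change -0.97, SE 0.40, limma, adjusted p = 0.11). Ddc, the decarboxylase that completes serotonin synthesis, was at 281, 269 and 348 FPKM at E11.5 and 202, 258 and 165 FPKM in PN. Every PN library lay below every E11.5 library, yet the change was small against the spread (log2 change -0.54, SE 0.25, limma, adjusted p = 0.158). The reuptake transporter gene Slc6a4 was at 65.2, 68.2 and 161 FPKM at E11.5 and 159.8, 149 and 104 FPKM in PN and its groups overlapped (limma, adjusted p = 0.288). The vesicular transporter Slc18a2 was at 20.8, 24.5 and 57.4 FPKM at E11.5 and 24.6, 23.9 and 18.9 FPKM in PN, and only E11.5 c stood clear of the rest (limma, adjusted p = 0.448).

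Among the genes for the cofactor tetrahydrobiopterin, Gchfr, the feedback regulator of its first enzyme, was the most abundant of the list at 2133, 1015 and 1345 FPKM at E11.5 and 1158, 1342 and 554 FPKM in PN. The synthesis enzymes Gch1, Pts and Spr and the recycling enzymes Qdpr and Pcbd1 had log2 changes of 0.13, -0.26, -0.62, -0.05 and -0.52, and limma called none of them (adjusted p = 0.852, 0.486, 0.14, 0.929 and 0.235). The members that fell handle serotonin outside synthesis. Slc22a3, a low-affinity organic cation transporter that takes up monoamines, was at 22, 14.6 and 19.2 FPKM at E11.5 and 2.09, 4.19 and 3.41 FPKM in PN. The groups were far apart, and Slc22a3 fell (log2 change -2.22, SE 0.37, limma, adjusted p = 0.00221). Maob, the monoamine oxidase that serotonin neurons are known for, was at 11.3, 30.7 and 52.5 FPKM at E11.5 and 5.66, 11.8 and 5.08 FPKM in PN. It went from 31.5 ± 20.6 to 7.52 ± 3.74 FPKM (n = 3 each, log2 change -1.78, SE 0.54, limma, adjusted p = 0.0381). Its groups overlapped between E11.5 a and PN b. The Maob call was lost on leaving out E11.5 b, E11.5 c or any of the PN libraries (limma, adjusted p = 0.0528 to 0.142). Its partner enzyme Maoa did not pass, at 35.7, 17.5 and 44.3 FPKM at E11.5 and 22.3, 36 and 33.6 FPKM in PN (limma, adjusted p = 0.986).

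Transcription factors of the serotonin lineage mostly fell: of 17 tested, 11 fell and 1 rose, with a median log2 change of -1.75. Whether this list and the synthesis list differ was not tested. Nkx6-1 was too low to be tested. All 11 that fell were still at 1 FPKM or more in some PN library. Fev was at 393, 226 and 180.4 FPKM at E11.5 and 101, 81.9 and 34.6 FPKM in PN. Every PN library lay below the lowest E11.5 library, and the fall was from 266 ± 112 to 72.3 ± 34 FPKM (n = 3 each, log2 change -1.92, SE 0.43, limma, adjusted p = 0.00928). Gata2, a zinc finger factor needed for the lineage, was at 173, 143 and 89.2 FPKM at E11.5 and 15.6, 10.7 and 13.2 FPKM in PN, so the stages did not come near each other (log2 change -3.23, SE 0.32, limma, adjusted p = 0.000171). Its relative Gata3 kept a higher level, at 296, 181 and 262 FPKM at E11.5 and 73.8, 67.8 and 77.1 FPKM in PN (log2 change -1.71, SE 0.26, limma, adjusted p = 0.0014). Lmx1b, a LIM homeobox factor, was at 54.1, 19.4 and 21.2 FPKM at E11.5 and 0.686, 7.18 and 2.5 FPKM in PN. PN a held the least Lmx1b and PN b the most of that stage, and the groups did not overlap (log2 change -3.0, SE 0.61, limma, adjusted p = 0.00567).

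Insm1, a zinc finger factor of newborn neurons and endocrine cells, was at 73.7, 44.5 and 39.5 FPKM at E11.5 and 2.01, 1.12 and 1.15 FPKM in PN, the steepest fall of the list (log2 change -4.43, SE 0.37, limma, adjusted p = 8.05e-05). Pou2f2, a POU domain factor, was at 70.9, 58.9 and 42.3 FPKM at E11.5 and 4.67, 3.63 and 4.74 FPKM in PN (log2 change -3.42, SE 0.33, limma, adjusted p = 0.00014). The NK homeobox gene Hmx2 was at 82.7, 51.7 and 52.7 FPKM at E11.5 and 7.76, 9.76 and 3.61 FPKM in PN (log2 change -3.03, SE 0.39, limma, adjusted p = 0.000589). In all 3 genes the highest PN library lay several-fold below the lowest E11.5 library. Nkx2-2 and Nkx2-9, which pattern the ventral neural tube where the lineage starts, had log2 changes of -2.37 and -2.95 (SE 0.38 and 0.55, limma, adjusted p = 0.00177 and 0.00402).

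The POU factor Pou3f2 also fell (log2 change -1.62, limma, adjusted p = 0.0257). Its call was lost without E11.5 b or any PN library (limma, adjusted p = 0.065 to 0.104). Egr1, an activity-regulated zinc finger factor, was the member that rose, at 0.616, 1.38 and 0.614 FPKM at E11.5 and 6.87, 3.01 and 4.27 FPKM in PN (log2 change 1.58, SE 0.39, limma, adjusted p = 0.0146). The Egr1 call was lost without PN a (log2 change 1.32, limma, adjusted p = 0.055). En1, a homeobox factor that 5-HT neurons share with their midbrain neighbours, did not pass and overlapped between stages at 113, 43.2 and 51.9 FPKM at E11.5 and 81.8, 59.5 and 26.3 FPKM in PN (limma, adjusted p = 0.669). En2, Foxa1, Foxa2 and Hmx3 did not pass either, with log2 changes of -0.86, 1.0, -1.75 and -1.35.

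**Figure D2:**
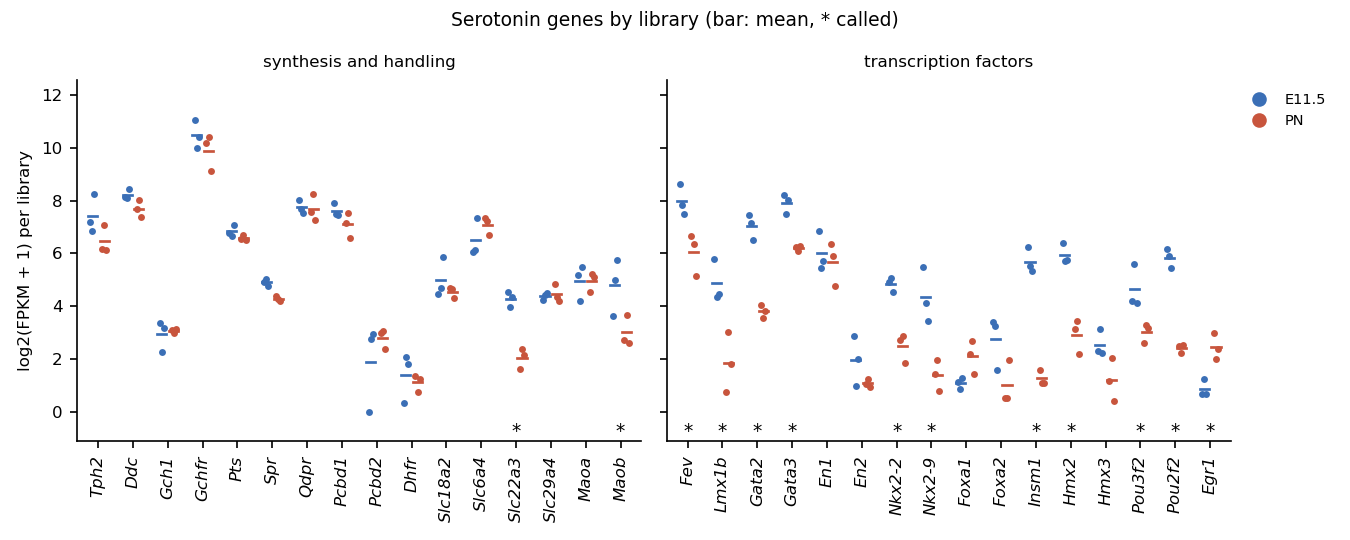
log2(FPKM + 1) in each library (points) and stage means (bars) for the tested genes of serotonin synthesis and handling (left) and for 16 transcription factors of the lineage (right), with E11.5 in blue, PN in red and an asterisk above the names of genes that were called. On the left 2 of 16 genes carry an asterisk, and on the right 11 of 16.

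The promoters of Fev and Gata2 are shown because peaks of Myc-tagged Pet-1 lay over them in the deposited peak list. That list was made from 1 chromatin immunoprecipitation of embryonic hindbrain. The embryos were older than E11.5, so the peaks come from neither stage compared here. Each run is the 250 bases before an annotated start on the gene's strand, from RefSeq on GRCm38.p6, and capitals mark CGGAA on either strand (TTCCG where it lies on the other one). GGAA is the core that ETS factors such as Pet-1 bind, and CGGAA holds it. The Fev window is chr1:74885409-74885658, minus strand, under a peak with the authors' score of 59.91. Scores in the list ran from 50 to 3133.01. The Gata2 window is chr6:88193641-88193890, plus strand, upstream of the first of its starts, under a peak with a score of 296.83.
Fev: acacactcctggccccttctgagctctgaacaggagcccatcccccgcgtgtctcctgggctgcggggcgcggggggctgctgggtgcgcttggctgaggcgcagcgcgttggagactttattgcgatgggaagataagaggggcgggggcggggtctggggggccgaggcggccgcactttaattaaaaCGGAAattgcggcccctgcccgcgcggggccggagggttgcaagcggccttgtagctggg
Gata2: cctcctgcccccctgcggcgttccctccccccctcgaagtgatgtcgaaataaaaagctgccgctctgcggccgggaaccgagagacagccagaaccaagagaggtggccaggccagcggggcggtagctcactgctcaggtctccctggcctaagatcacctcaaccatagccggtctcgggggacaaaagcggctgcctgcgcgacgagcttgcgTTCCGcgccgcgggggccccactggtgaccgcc
Each of these windows held 1 CGGAA. A second Gata2 start has a window at chr6:88198414-88198663, also under a peak, with a score of 66.43, and that window held 0. At least 1 CGGAA stood in 25.2% of all 32851 promoter windows of the RefSeq table, and GGAA in 93.4%, so a match describes the sequence and marks no site. Among the serotonin lineage factors, 12 of the 13 tested members with a promoter in the table (92.3%) had a peak within 5 kb of a start, against 3210 of the 8782 tested genes with one (36.6%). Of the tested synthesis and handling genes 3 of 14 (21.4%) had a peak that near. High shares were not limited to the lineage factors. Progenitor and radial glia genes had such a peak in 10 of 12 cases (83.3%), and Lin28 and let-7 genes in 5 of 8 (62.5%). The share was 3 of 9 (33.3%) for factors of immature neurons and 3 of 13 (23.1%) for nuclear factor I and late-onset factors. Peaks lay over the promoter itself for 5 of the 13 lineage factors (38.5%), against 31.2% of all tested genes with a promoter.

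Tested factors of immature neurons mostly fell. Of 23 listed 11 were tested, of which 6 fell and 1 rose, with a median log2 change of -1.15. Of those that fell, 3 were below 1 FPKM in every PN library. With no filter on low values 4 of 22 fell and 0 rose, with a median of -0.55. Ebf1, a helix-loop-helix factor of early neuronal differentiation, was at 29.2, 28.2 and 27.2 FPKM at E11.5 and 0.025, 0.0901 and 0.403 FPKM in PN. All E11.5 libraries were alike and all PN libraries near 0 (log2 change -4.65, SE 0.35, limma, adjusted p = 5.42e-05). Newborn neurons are also known for the SoxC factor Sox11, which was at 269.7, 142 and 243 FPKM at E11.5 and 16.9, 12.1 and 13.2 FPKM in PN (log2 change -3.82, SE 0.32, limma, adjusted p = 7.07e-05). Its relative Sox4 was at 27.2, 17 and 20.3 FPKM at E11.5 and 16.2, 15.2 and 7.41 FPKM in PN and did not pass (limma, adjusted p = 0.193). Myt1 and St18, zinc finger factors of one family that act in neuronal differentiation, had log2 changes of -2.55 and -2.03 (limma, adjusted p = 0.00245 and 0.00364). Klf7, a factor of axon outgrowth, was the member that rose, with a log2 change of 1.39 (limma, adjusted p = 0.0253). The Klf7 call was lost without E11.5 b, E11.5 c or any PN library (limma, adjusted p = 0.0585 to 0.108). Hox genes, which mark the hindbrain behind the anterior serotonin nuclei, were near 0: of 15, 9 were at 0 in all 6 libraries, and only Hoxa2 passed the filter, at 0, 2.93 and 4.77 FPKM at E11.5 and 1.34, 0 and 0 FPKM in PN (limma, adjusted p = 0.238).

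Genes that mark developmental time moved in opposite directions. LIN28 proteins block the maturation of let-7 microRNAs in early embryos, and let-7 in turn represses messages such as those of the Igf2bp RNA-binding proteins. In the Lin28 and let-7 list 6 of 11 tested members fell and 1 rose, with a median log2 change of -1.38, and 4 of those that fell were below 1 FPKM in every PN library. Lin28a was at 1.87, 1.29 and 1.7 FPKM at E11.5 and listed at 0 in all 3 PN libraries (log2 change -1.38, SE 0.27, limma, adjusted p = 0.00467). Igf2bp1 was at 17.7, 13.5 and 13.4 FPKM at E11.5 and 0.291, 0.0483 and 0.233 FPKM in PN (log2 change -3.73, SE 0.35, limma, adjusted p = 0.000136). Igf2bp2 was at 18.7, 10.4 and 14.1 FPKM at E11.5 and 0.473, 0.192 and 0.53 FPKM in PN (log2 change -3.43, SE 0.38, limma, adjusted p = 0.000275). Igf2bp3 varied most among the E11.5 libraries, at 13.8, 25.8 and 47.2 FPKM at E11.5 and 0.0632, 0.564 and 1.78 FPKM in PN (log2 change -4.01, SE 0.53, limma, adjusted p = 0.000663). All 3 Igf2bp genes were thus clearly present at E11.5 and below 2 FPKM in every PN library. Arid3a and Arid3b, DNA-binding factors, had log2 changes of -1.69 and -2.48 (limma, adjusted p = 0.00743 and 0.00233). Hmga1, Hmga2, Dicer1 and Mycn did not pass, with log2 changes of 0.11, -0.13, -0.90 and -0.87. Hmga1, an architectural chromatin protein, ranged from 9.06 to 86.5 FPKM among the E11.5 libraries. Myc was the member that rose, at 0, 0.0382 and 0.0554 FPKM at E11.5 and 6.4, 4.31 and 2.17 FPKM in PN (log2 change 2.28, SE 0.37, limma, adjusted p = 0.00198). Lin28b, Trim71, Nr6a1 and Prtg were too low to be tested.

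Nuclear factor I proteins, which act late in the development of neurons and glia, went the other way. Nfix was at 0.415, 0.45 and 0.164 FPKM at E11.5 and 121, 171 and 86.9 FPKM in PN, the steepest rise of its list (log2 change 6.52, SE 0.36, limma, adjusted p = 1.29e-05). Nfib was at 0.0116, 0.0125 and 0.0436 FPKM at E11.5 and 11.8, 13.1 and 13.1 FPKM in PN, and Nfia at 0.176, 0.188 and 0.152 FPKM at E11.5 and 4.7, 6.99 and 4.77 FPKM in PN. No E11.5 library reached 1 FPKM of these 3 genes, and every PN library exceeded 4 FPKM (Nfib log2 change 3.74, SE 0.33, limma, adjusted p = 0.000105; Nfia log2 change 2.45, SE 0.33, limma, adjusted p = 0.000683). The fourth member of the family, Nfic, overlapped between stages at 3.04, 1.22 and 1.81 FPKM at E11.5 and 4.09, 1.11 and 1.93 FPKM in PN (limma, adjusted p = 0.881). Of all 15 tested nuclear factor I and late-onset factors, 8 rose and 0 fell (median log2 change 1.29), and 6 of those that rose were below 1 FPKM in every E11.5 library. The zinc finger factors Bcl11a and Bcl11b had log2 changes of 1.29 and 2.23 (limma, adjusted p = 0.00659 and 0.00105). Thra, the thyroid hormone receptor alpha, was at 6.26, 12.6 and 8.89 FPKM at E11.5 and 34.5, 32.5 and 25.9 FPKM in PN (log2 change 1.68, SE 0.34, limma, adjusted p = 0.006). Ppargc1a, a coactivator of mitochondrial genes, rose to 1.86, 1.49 and 3.44 FPKM from 0.139, 0.00279 and 0.0188 (log2 change 1.59, SE 0.32, limma, adjusted p = 0.0055). Mef2a, a factor of activity-dependent transcription, also rose (log2 change 1.38, limma, adjusted p = 0.0165), a call lost without E11.5 b (log2 change 1.35, adjusted p = 0.0561).

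BAF complexes use the energy of ATP to move nucleosomes, and neurons are known to exchange some subunits for relatives as they leave the cell cycle. Of 17 subunit genes, 7 fell and 2 rose, with a median log2 change of -0.93. The ATPase genes moved apart. Smarca4 was at 121, 94.7 and 76.1 FPKM at E11.5 and 29, 39.7 and 37.7 FPKM in PN (log2 change -1.42, SE 0.28, limma, adjusted p = 0.00541), and Smarca2 at 27.5, 27.9 and 42.4 FPKM at E11.5 and 103, 153 and 159 FPKM in PN (log2 change 2.06, SE 0.30, limma, adjusted p = 0.00102). Smarca4 was the higher of the pair in each E11.5 library and Smarca2 in each PN library. Of the actin-related subunits, Actl6a, the progenitor form, was at 90.1, 90.3 and 109 FPKM at E11.5 and 15.4, 28.1 and 15.6 FPKM in PN (log2 change -2.29, SE 0.31, limma, adjusted p = 0.000726). Actl6b, the neuronal form, was at 59, 45 and 50.3 FPKM at E11.5 and 81.4, 64.7 and 53.6 FPKM in PN and did not pass (limma, adjusted p = 0.387).

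In the other exchanged positions of the complex some early forms fell, and the neuronal forms were already present at E11.5. Ss18 was at 7.0, 9.85 and 8.65 FPKM at E11.5 and 1.51, 1.56 and 0.35 FPKM in PN (log2 change -2.2, SE 0.40, limma, adjusted p = 0.00347), while its neuronal relative Ss18l1 was at 7.47, 8.16 and 6.34 FPKM at E11.5 and 10.1, 8.25 and 8.44 FPKM in PN (limma, adjusted p = 0.623). The early PHD finger subunit Phf10 and the neuronal Dpf1 and Dpf3 did not pass (log2 changes -0.73, -0.93 and -0.97), and Dpf2 fell, at 59.7, 62.7 and 45 FPKM at E11.5 and 14, 16.6 and 13.7 FPKM in PN (log2 change -1.84, SE 0.28, limma, adjusted p = 0.0015). Smarcd1 and Smarcd3, alternative subunits of one position, moved apart with log2 changes of -1.45 and 1.43 (limma, adjusted p = 0.00694 and 0.00902). Smarcc1 and Arid1a fell (log2 changes -1.82 and -1.71, limma, adjusted p = 0.00223 and 0.00257), whereas their relatives Smarcc2 and Arid1b did not pass (log2 changes -0.66 and -0.42). The core subunit Smarcb1 was the most abundant, at 387, 444 and 389 FPKM at E11.5 and 359, 444 and 339 FPKM in PN, with overlapping groups (limma, adjusted p = 0.784).

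**Figure D3:**
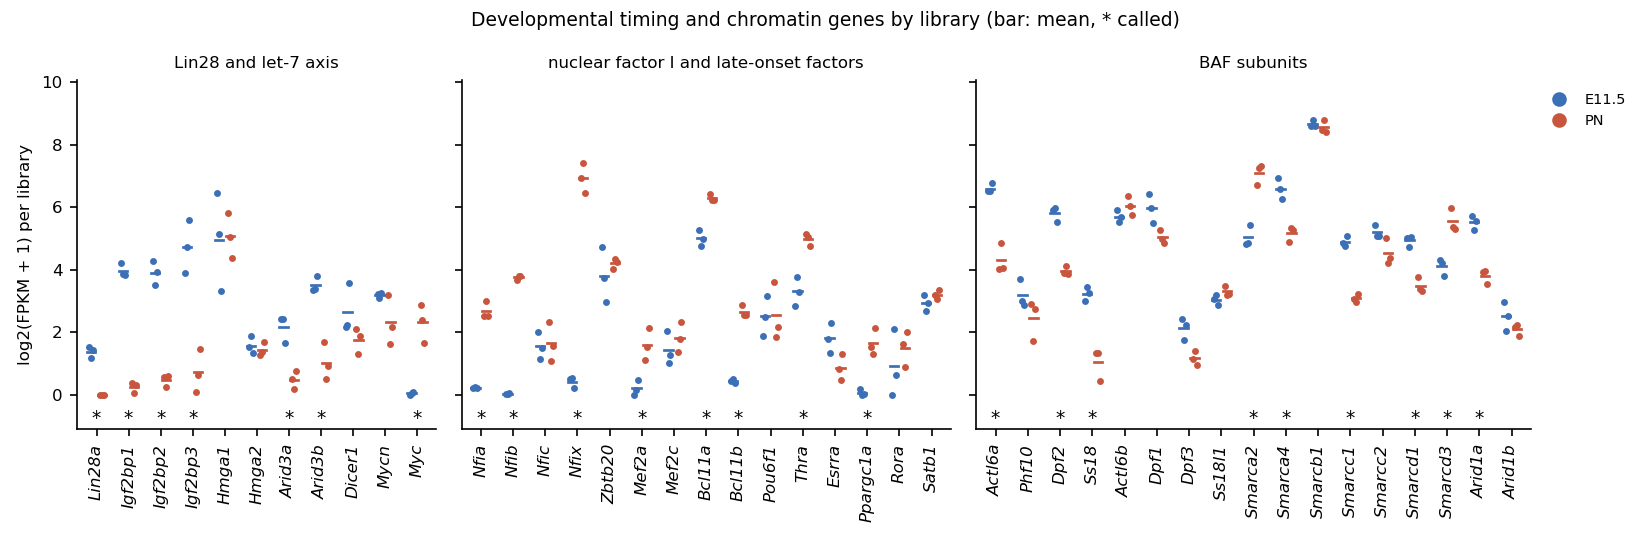
log2(FPKM + 1) in each library (points) and stage means (bars) for the tested members of the Lin28 and let-7 list, the nuclear factor I and late-onset list, and the BAF subunits, with E11.5 in blue, PN in red and an asterisk above the names of genes that were called. The Igf2bp genes are high only in blue, Nfix and Nfib only in red, and Smarca4 and Smarca2 exchange places.

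Other chromatin and RNA regulators changed in part. Of 18 tested genes of DNA methylation and polycomb complexes, 4 fell and 1 rose (median log2 change -0.24). Ezh2, the polycomb histone methyltransferase, was at 16.5, 17.9 and 30.4 FPKM at E11.5 and 0.944, 1.22 and 4.2 FPKM in PN (log2 change -2.95, SE 0.47, limma, adjusted p = 0.00175). The polycomb reader Cbx2 fell with it (log2 change -1.83, SE 0.35, limma, adjusted p = 0.00467). Rbbp4 and Rbbp7, related histone-binding subunits of several complexes, went in opposite directions, with log2 changes of -1.31 and 1.32 (limma, adjusted p = 0.00558 and 0.00993). The de novo DNA methyltransferase Dnmt3a did not pass (log2 change 0.59, limma, adjusted p = 0.263). Among 24 neuronal splicing and RNA-binding regulators 7 rose and 2 fell. Without PN a, PN b or PN c the number that rose was 3, 3 and 4. Rbfox1, a splicing factor of maturing neurons, was at 3.09, 4.9 and 3.08 FPKM at E11.5 and 23.6, 27.1 and 37.8 FPKM in PN, with every PN library several-fold above every E11.5 library (log2 change 2.7, SE 0.35, limma, adjusted p = 0.000645).

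Cell cycle genes fell in part, and others were too low to be tested. Of 33 listed 21 were tested, of which 8 fell and 1 rose, with a median log2 change of -0.97. Among those not tested, Top2a and Ccnb1 had means of 0.655 and 0.185 FPKM at E11.5 and 0.192 and 0.226 FPKM in PN. Cdk1 and Plk1 had means of 0.0673 and 0.187 FPKM at E11.5 and 0.772 and 0.928 FPKM in PN. The whole list summed to 1952, 1714 and 1508 FPKM at E11.5 and to 363.8, 426 and 354.5 FPKM in PN. Cdk4, a kinase of the G1 phase, made up most of the E11.5 sum, at 1414, 1235 and 1102 FPKM at E11.5 and 181, 191 and 138 FPKM in PN (log2 change -2.88, SE 0.23, limma, adjusted p = 7.07e-05). Cdkn1c, a cyclin-dependent kinase inhibitor of cells leaving the cycle, was at 286, 252 and 185 FPKM at E11.5 and 9.53, 8.19 and 10.5 FPKM in PN (log2 change -4.52, SE 0.28, limma, adjusted p = 2.03e-05). The D-type cyclin Ccnd2 fell from 35.2, 20.0 and 13.9 to 0.431, 0.194 and 1.01 FPKM (log2 change -3.9, SE 0.44, limma, adjusted p = 0.000318). The member that rose was another inhibitor, Cdkn1a, at 7.79, 1.29 and 0.168 FPKM at E11.5 and 31.8, 34.6 and 22.2 FPKM in PN (log2 change 3.39, SE 0.65, limma, adjusted p = 0.00445). Mki67, the defining marker of dividing cells, was below 1 FPKM in all 6 libraries, and Pcna did not pass at 85.6, 44.8 and 81.1 FPKM at E11.5 and 97, 133 and 123 FPKM in PN (limma, adjusted p = 0.0989). Of 15 tested progenitor and radial glia genes, 4 fell (26.7%) and 2 rose (13.3%), against 9.18% and 15.8% of all genes tested. Without E11.5 b 4 rose and 3 fell, without E11.5 a 1 rose and 6 fell, and without PN b or PN c 0 rose. Vim and Nes, intermediate filaments of progenitors, had log2 changes of -3.3 and -2.15 (limma, adjusted p = 0.000115 and 0.0039). Vim was at 158, 301 and 246 FPKM at E11.5 and 18.7, 23.5 and 24.7 FPKM in PN. Fabp7, a fatty acid-binding protein of radial glia and astrocytes, rose (log2 change 1.54, SE 0.41, limma, adjusted p = 0.0207) and was highest in PN b at 938 FPKM. The Fabp7 call was lost without PN b or PN c (limma, adjusted p = 0.0632 to 0.0702).

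Of 17 listed retinoid genes 7 were tested, of which 5 fell and 0 rose (median log2 change -1.34), and 3 of those that fell were below 1 FPKM in every PN library. With no filter on low values 3 of 16 fell and the median was 0.02. Some members too low to be tested were higher in PN libraries. Aldh1a1, an enzyme that makes retinoic acid, was at 0.0767, 0.025 and 0.0505 FPKM at E11.5 and 7.89, 56.0 and 0.744 FPKM in PN. The binding protein gene Crabp1 reached 4.48 and 3.46 FPKM in PN a and c, and Rbp4 reached 9.47 and 1.64 FPKM in PN b and c. Without E11.5 c, PN a or PN c the number of tested members that fell was 3, 2 and 2. Crabp2, which carries retinoic acid to its nuclear receptors, was at 222, 134 and 118 FPKM at E11.5 and 1.93, 1.32 and 1.29 FPKM in PN, and each PN library held less than 2 FPKM (log2 change -5.94, SE 0.34, limma, adjusted p = 1.34e-05). Rara, retinoic acid receptor alpha, was at 9.3, 10.5 and 7.05 FPKM at E11.5 and 0.924, 0.348 and 0.93 FPKM in PN (log2 change -2.52, SE 0.37, limma, adjusted p = 0.00108). The beta retinoid X receptor Rxrb did not pass, with overlapping groups (limma, adjusted p = 0.79).

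Of 26 growth cone and neurite genes, 9 rose and 2 fell. Without PN b 6 rose and 0 fell, and 0 fell without E11.5 a or PN c either. Gap43, the growth-associated protein of axon terminals, was at 1262, 1163 and 907 FPKM at E11.5 and 4584, 6499 and 4592 FPKM in PN and was among the highest genes of the PN libraries (log2 change 2.23, SE 0.24, limma, adjusted p = 0.000256). Mapt, the microtubule-associated protein tau, was at 78.6, 42.2 and 50.4 FPKM at E11.5 and 452, 447 and 458 FPKM in PN, nearly equal in the 3 PN libraries (log2 change 3.01, SE 0.28, limma, adjusted p = 0.000113). Tubb2a, a beta tubulin, was at 279.8, 220.2 and 204 FPKM at E11.5 and 1526, 1577 and 1072 FPKM in PN (log2 change 2.56, SE 0.25, limma, adjusted p = 0.00016). Stmn2, a microtubule regulator of growth cones, was high at both stages and did not pass, at 1552, 1131 and 1668 FPKM at E11.5 and 1565, 1776 and 1994 FPKM in PN (limma, adjusted p = 0.382). Of 5 neurofilament genes 4 were tested, 1 rose and 2 fell. Prph, peripherin, rose (log2 change 2.44, SE 0.47, limma, adjusted p = 0.00453). Nefm fell (log2 change -2.23, SE 0.54, limma, adjusted p = 0.0139), a call lost with a pseudocount of 0.1 and with no filter (limma, adjusted p = 0.0549 to 0.0576). Ina, alpha-internexin, fell, at 205, 182 and 204 FPKM at E11.5 and 134, 94.4 and 90.7 FPKM in PN (log2 change -0.90, SE 0.25, limma, adjusted p = 0.0249), a call lost without E11.5 b, E11.5 c, PN b or PN c, with upper quartile scaling and with no trend in the variance (limma, adjusted p = 0.0515 to 0.0856). Nefl did not pass, with 1.38 FPKM in E11.5 a against 47.9 and 29.5 in E11.5 b and c (limma, adjusted p = 0.28).

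Guidance genes changed in both directions. Of 31 tested, 10 rose and 6 fell, and 6 of those that rose were below 1 FPKM in every E11.5 library. Dcc, the netrin receptor, was at 12.9, 6.66 and 10.3 FPKM at E11.5 and 0.838, 1.68 and 2.09 FPKM in PN (log2 change -2.1, SE 0.40, limma, adjusted p = 0.00456). Cxcr4, the chemokine receptor that guides migrating neurons, was at 10.6, 3.82 and 2.75 FPKM at E11.5 and 0.333, 0.357 and 0.525 FPKM in PN (log2 change -2.08, SE 0.45, limma, adjusted p = 0.00787). Robo2, a Slit receptor, was near 0 in each E11.5 library and at 3.2, 2.9 and 3.48 FPKM in PN (log2 change 2.05, SE 0.29, limma, adjusted p = 0.000845). Unc5d, a netrin receptor that mediates repulsion, and Sema6d, a transmembrane semaphorin, rose from below 1 FPKM with log2 changes of 1.97 and 2.07 (limma, adjusted p = 0.00178 and 0.00104). Efna2, an ephrin ligand, fell by 2.31 on the log2 scale (SE 0.43, limma, adjusted p = 0.00406).

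Adhesion genes of synapses and the cadherins rose in part. Of 29 tested synaptic adhesion genes 16 rose and 1 fell (median log2 change 1.07, against 0.06 over all genes). Without E11.5 b or without PN c 10 rose. Of the 16 that rose, 6 were below 1 FPKM in every E11.5 library. Cntn1, a contactin of axon membranes, was at 1.28, 3.17 and 4.19 FPKM at E11.5 and 43.1, 39.1 and 56.8 FPKM in PN (log2 change 3.67, SE 0.39, limma, adjusted p = 0.000244). Its partner gene Cntnap2 was below 0.02 FPKM in each E11.5 library and at 12.55, 7.81 and 20.8 FPKM in PN (log2 change 3.76, SE 0.41, limma, adjusted p = 0.000264). Lrrtm3, a leucine-rich postsynaptic adhesion protein, rose to 8.11, 9.51 and 16.6 FPKM (log2 change 3.55, SE 0.38, limma, adjusted p = 0.000236). Ptprf, a receptor tyrosine phosphatase, was the member that fell, with near-equal libraries within each stage, at 27.1, 25.4 and 25.3 FPKM at E11.5 and 8.0, 8.82 and 8.31 FPKM in PN (log2 change -1.52, SE 0.29, limma, adjusted p = 0.00466). Of 43 tested cadherin and protocadherin genes out of 93 listed, 18 rose and 0 fell, and 9 of those that rose were below 1 FPKM in every E11.5 library. Genes of the clustered protocadherins share 3' exons, so reads may have been divided among them and their single values are uncertain. Pcdh17 and Cdh6, which lie outside the clusters, had log2 changes of 3.13 and 2.71 (limma, adjusted p = 0.000344 and 0.000573).

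The release machinery rose broadly. Of 36 tested genes of synaptic vesicles and exocytosis 26 rose and 0 fell, with a median log2 change of 1.58. Of those that rose, 1 was below 1 FPKM in every E11.5 library. Those that rose included the SNARE genes Snap25, Stx1a and Vamp2, the synapsins Syn1, Syn2 and Syn3 and the vesicle protein Syp. Without PN a the number of the list that rose was 18, and without any other single library it was 22 to 26. Syn2, which tethers vesicles, was at 0.126, 3.16 and 1.77 FPKM at E11.5 and 36, 29.1 and 23.4 FPKM in PN (log2 change 3.68, SE 0.50, limma, adjusted p = 0.00073). Cplx1, complexin 1, which clamps the fusion complex, was at 1.01, 2.31 and 4.5 FPKM at E11.5 and 27.8, 35.8 and 24.9 FPKM in PN (log2 change 3.18, SE 0.43, limma, adjusted p = 0.000724). Syt4, a synaptotagmin of dense-core and other vesicles, varied widely among E11.5 libraries, at 0.345, 1.49 and 8.09 FPKM at E11.5 and 45.7, 48.8 and 81.7 FPKM in PN, and all PN libraries lay above them (log2 change 4.21, SE 0.63, limma, adjusted p = 0.00122). The fast calcium sensor Syt1 was well expressed at both stages and did not pass, at 42.6, 26.5 and 54.2 FPKM at E11.5 and 54.5, 57 and 66 FPKM in PN (limma, adjusted p = 0.224), and neither did Syt11 (adjusted p = 0.644). Of 15 tested scaffolds of the postsynaptic side, 2 rose (13.3%) and 1 fell (6.67%), below the shares over all genes (15.8% and 9.18%). Dlg2 rose to 3.26, 4.03 and 4.32 FPKM (log2 change 2.16, SE 0.31, limma, adjusted p = 0.000978), and Homer3 fell from 16, 23.3 and 13.2 to 0.505, 0.549 and 0.20 FPKM (log2 change -3.68, SE 0.38, limma, adjusted p = 0.0002).

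Receptors for inhibitory transmitters mostly rose. Of 16 tested genes for GABA and glycine receptors, 15 were called higher and 0 lower (median log2 change 2.2), and 6 of those that rose were below 1 FPKM in every E11.5 library. On leaving out E11.5 b, PN a, PN b or PN c, 11 rose. With no filter on low values 12 of 20 rose. A further 4 listed genes were too low to be tested. Gabra5, an alpha subunit of the GABA-A receptor, was at 0, 0.0385 and 0 FPKM at E11.5 and 6.17, 7.34 and 7.96 FPKM in PN (log2 change 3.0, SE 0.32, limma, adjusted p = 0.000239). The beta subunit gene Gabrb2 was at 2.88, 0.359 and 1.7 FPKM at E11.5 and 15.52, 16.3 and 22.7 FPKM in PN (log2 change 2.97, SE 0.45, limma, adjusted p = 0.00142). Glrb, the shared beta subunit of glycine receptors, was at 0.582, 0.0942 and 1.31 FPKM at E11.5 and 9.8, 6.16 and 13.3 FPKM in PN (log2 change 2.7, SE 0.43, limma, adjusted p = 0.00179). No E11.5 library overlapped a PN library in these 3 genes. Gabra2 was the tested member not called, at 0.43, 1.83 and 1.23 FPKM at E11.5 and 2.03, 3.13 and 2.1 FPKM in PN (limma, adjusted p = 0.205). No gene of this list had a mycPet-1 peak within 5 kb of a start, 0 of the 13 with a promoter in the table.

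Glutamate receptor genes rose as well. Of 11 tested ionotropic receptor genes 7 rose and 0 fell, and of 7 metabotropic ones 5 rose and 0 fell, with a median log2 change of 1.81 in both lists. Of those that rose, 6 ionotropic and 4 metabotropic receptor genes were below 1 FPKM in every E11.5 library. Grin1, the obligatory subunit of NMDA receptors, was at 0.75, 0.0592 and 0.62 FPKM at E11.5 and 10.6, 9.69 and 11.3 FPKM in PN (log2 change 3.0, SE 0.37, limma, adjusted p = 0.000478). Grin2b, an NMDA subunit of developing neurons, was at 0.484, 0.115 and 0.0451 FPKM at E11.5 and 7.77, 7.24 and 7.75 FPKM in PN, with PN libraries nearly equal (log2 change 2.84, SE 0.34, limma, adjusted p = 0.000407). The AMPA receptor subunit Gria1 was at 0.712, 0.295 and 0.454 FPKM at E11.5 and 8.3, 7.32 and 10.4 FPKM in PN (log2 change 2.7, SE 0.35, limma, adjusted p = 0.000624). A different AMPA subunit, Gria4, was already high at E11.5 and did not pass, at 56.3, 30.0 and 49.1 FPKM at E11.5 and 29.2, 36.3 and 37.8 FPKM in PN (limma, adjusted p = 0.473). Grik1, a kainate receptor subunit, and Grm5, a metabotropic receptor coupled to phospholipase C, rose with log2 changes of 2.87 and 3.04 (limma, adjusted p = 0.000479 and 0.000727).

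Transporters, pumps and channels rose in part. Of 12 tested transporters and pumps of chloride and cations 8 rose and 0 fell (median log2 change 1.33), and 5 rose without PN c. Slc12a5, the cotransporter KCC2 that extrudes chloride and makes GABA inhibitory, was at 5.83, 1.84 and 1.71 FPKM at E11.5 and 26.2, 15.9 and 15.2 FPKM in PN (log2 change 2.38, SE 0.46, limma, adjusted p = 0.00451). Atp1b1, a beta subunit of the sodium pump, was at 3.02, 2.63 and 8.89 FPKM at E11.5 and 89.6, 76.3 and 92.2 FPKM in PN (log2 change 4.05, SE 0.41, limma, adjusted p = 0.000181). Of 29 voltage-gated potassium channel genes 19 were tested. With no filter on low values 7 of 29 rose and 1 fell. Of the 19 tested 8 rose and 1 fell, and 4 of those that rose were below 1 FPKM in every E11.5 library. The A-type channel gene Kcnd2 and its auxiliary subunits Dpp10 and Kcnip4 were among them, with log2 changes of 3.15, 3.84 and 3.29 (limma, adjusted p = 0.000647, 0.000141 and 0.00202). Kcnd2 was at 0.0154, 0.00915 and 0.142 FPKM at E11.5 and 6.27, 5.89 and 15.4 FPKM in PN. Kcnh2, the ERG channel, fell from 21.4, 13.7 and 6.66 to 2.11, 1.2 and 1.74 FPKM (log2 change -2.36, SE 0.46, limma, adjusted p = 0.00468).

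Of 23 other potassium and HCN channel genes 13 were tested, of which 6 rose and 1 fell. Of those that rose, 4 were below 1 FPKM in every E11.5 library. With no filter on low values 5 of 23 rose and 1 fell. Kcnj6, the GIRK2 channel through which Gi-coupled receptors hyperpolarise neurons, was at 0 in every E11.5 library and at 5.24, 1.45 and 5.29 FPKM in PN (log2 change 2.2, SE 0.41, limma, adjusted p = 0.00383). The leak channel gene Kcnk1 was at 0, 0.169 and 0 FPKM at E11.5 and 8.63, 10.9 and 12.1 FPKM in PN (log2 change 3.44, SE 0.34, limma, adjusted p = 0.000168), and Kcnn2, a calcium-activated channel of the afterhyperpolarisation, rose from near 0 to 3.85, 2.81 and 5.31 FPKM (log2 change 2.28, SE 0.32, limma, adjusted p = 0.00089). Among 25 tested sodium and calcium channel genes 8 rose and 1 fell, with a median log2 change of 0.24. Of those that rose, 5 were below 1 FPKM in every E11.5 library. Cacng3, an auxiliary protein of AMPA receptors that was placed in this list by its family name, rose most, from below 0.2 FPKM in each E11.5 library to 54.8, 67.8 and 36.7 FPKM (log2 change 5.63, SE 0.37, limma, adjusted p = 3.24e-05). The sodium channel beta subunit Scn3b was at 0.863, 2.42 and 3.15 FPKM at E11.5 and 30.3, 25.7 and 26.8 FPKM in PN (log2 change 3.26, SE 0.40, limma, adjusted p = 0.000459). The alpha subunit gene Scn2a1 was at 0.936, 0.717 and 1.01 FPKM at E11.5 and 6.54, 6.02 and 11.9 FPKM in PN (log2 change 2.23, SE 0.38, limma, adjusted p = 0.00257).

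Most serotonin receptor genes were too low to be tested, and 2 of 14 passed the filter. Among the others, Htr7, Htr1f and Htr1d were at 0 in every E11.5 library and above 0 in every PN library, with Htr7 at 2.12, 0.466 and 2.73 FPKM. With no filter on low values 3 of the 14 were called higher. Htr1a, the autoreceptor of serotonin cell bodies, was at 1.47, 1.36 and 1.46 FPKM at E11.5 and 1.3, 0.908 and 2.72 FPKM in PN, with overlapping groups (limma, adjusted p = 0.918). Htr5b was near 0 at E11.5 and at 7.37, 9.34 and 9.35 FPKM in PN (log2 change 3.25, SE 0.33, limma, adjusted p = 0.000181). Of 17 tested receptors for other inputs 9 rose and 2 fell, and 8 of those that rose were below 1 FPKM in every E11.5 library. Adra1b, an alpha-1 adrenergic receptor through which noradrenaline excites serotonin neurons, was at 0.069, 0.497 and 0.00832 FPKM at E11.5 and 9.89, 10.4 and 7.19 FPKM in PN (log2 change 3.1, SE 0.36, limma, adjusted p = 0.000356). Sstr1, a somatostatin receptor, was at 0.0122, 0.0273 and 0.203 FPKM at E11.5 and 18.9, 7.04 and 14.4 FPKM in PN (log2 change 3.65, SE 0.42, limma, adjusted p = 0.000344). Hcrtr1, an orexin receptor, was at 0.0519, 0.27 and 0.718 FPKM at E11.5 and 1.95, 12.6 and 5.49 FPKM in PN and highest in PN b (log2 change 2.27, SE 0.53, limma, adjusted p = 0.0117), a call lost with no filter on low values (limma, adjusted p = 0.0583). Hrh3, the histamine H3 receptor, fell, at 11.8, 5.24 and 12 FPKM at E11.5 and 1.5, 1.14 and 1.87 FPKM in PN (log2 change -2.03, SE 0.42, limma, adjusted p = 0.00624).

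Neuropeptide genes held some of the steepest rises. Of 23 tested genes of peptides and their processing, 12 rose and 1 fell (median log2 change 2.06), and 7 of those that rose were below 1 FPKM in every E11.5 library. Sst, which encodes somatostatin, was at 6.49, 3.72 and 4.34 FPKM at E11.5 and 2974, 3005 and 1967 FPKM in PN. It went from 4.85 ± 1.45 to 2649 ± 591 FPKM (n = 3 each, log2 change 8.82, SE 0.29, limma, adjusted p = 5.91e-07). The libraries of each stage were close to each other beside the distance between the stages. Nts, neurotensin, was at 6.17, 0.912 and 5.14 FPKM at E11.5 and 235, 279 and 487 FPKM in PN (log2 change 6.18, SE 0.50, limma, adjusted p = 7.07e-05). Tac1, the gene of substance P, was at 0.206, 0.108 and 0.191 FPKM at E11.5 and 57.2, 79.9 and 121 FPKM in PN (log2 change 6.15, SE 0.38, limma, adjusted p = 2.03e-05). Calca, the gene of calcitonin and CGRP, was below 0.2 FPKM in each E11.5 library and at 32.1, 20.3 and 31.8 FPKM in PN (log2 change 4.75, SE 0.37, limma, adjusted p = 5.98e-05). Penk and Pdyn, the enkephalin and dynorphin precursors, were also among those called higher. The secretory granule protein Chgb was the member that fell, at 1107, 1209 and 1426 FPKM at E11.5 and 189, 243 and 199 FPKM in PN (log2 change -2.57, SE 0.23, limma, adjusted p = 9.99e-05), while its relative Chga did not pass, at 106, 124 and 96.4 FPKM at E11.5 and 124, 192 and 129 FPKM in PN (limma, adjusted p = 0.282).

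The Sst promoter is shown because the gene had the largest log2 change of all named peptide genes. The window is chr16:23890845-23891094 on GRCm38.p6 (RefSeq), minus strand, the 250 bases before the start, and capitals mark TGACGTCA, the palindrome known as the cAMP response element.
Sst: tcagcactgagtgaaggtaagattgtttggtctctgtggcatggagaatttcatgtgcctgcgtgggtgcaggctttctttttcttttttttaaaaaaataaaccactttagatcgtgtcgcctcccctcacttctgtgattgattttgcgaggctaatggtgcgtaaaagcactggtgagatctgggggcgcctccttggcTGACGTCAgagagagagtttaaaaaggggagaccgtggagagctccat
The motif stood in 1.55% of all 32851 windows and at some start of 3.12% of the 8782 tested genes with a promoter in the table. In the peptide list it stood at 4 of the 20 such genes (20%). Among all such genes called higher in PN the share was 2.54%, and among those called lower 3.02%. The upstream windows of Tac1, Nts and Calca did not hold these letters. No peptide gene had a mycPet-1 peak within 5 kb of a start, 0 of 20.

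Calcium-binding genes mostly rose. Of 27 tested genes of calcium and calmodulin signalling 19 rose and 1 fell, with a median log2 change of 1.71, and 8 of those that rose were below 1 FPKM in every E11.5 library. Pcp4, a small protein that binds calmodulin, was at 0.591, 0.623 and 0.481 FPKM at E11.5 and 315, 477 and 427 FPKM in PN (log2 change 8.0, SE 0.29, limma, adjusted p = 9.72e-07). Calb2, calretinin, a cytosolic calcium buffer, was at 0.233, 0.223 and 0.185 FPKM at E11.5 and 47.2, 144 and 86.8 FPKM in PN (log2 change 6.13, SE 0.43, limma, adjusted p = 3.97e-05). Vsnl1, a neuronal calcium sensor, was at 1.23, 0.0758 and 0.113 FPKM at E11.5 and 52.6, 60.0 and 65.7 FPKM in PN (log2 change 5.44, SE 0.40, limma, adjusted p = 4.51e-05). Each gene was near or below 1 FPKM in every E11.5 library and above 40 FPKM in every PN library. Camk2n1, an inhibitor of CaM kinase II, was the member that fell, at 151, 80.5 and 98.6 FPKM at E11.5 and 19.1, 26.3 and 30.5 FPKM in PN (log2 change -2.05, SE 0.32, limma, adjusted p = 0.00158). Among 22 tested RGS and G protein subunit genes 10 rose and 3 fell. Without PN a the number that rose was 5, and without PN b 6 rose and 1 fell. Rgs10, which speeds the shut-off of Gi proteins and is also known from microglia, was at 0.777, 2.17 and 0.347 FPKM at E11.5 and 104, 240.0 and 199 FPKM in PN and highest in PN b (log2 change 6.45, SE 0.44, limma, adjusted p = 3.45e-05). Gnai2, a Gi alpha subunit, fell from 161, 145 and 156 to 57.2, 46 and 38.3 FPKM (log2 change -1.7, SE 0.25, limma, adjusted p = 0.00125).

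Immediate early genes, which respond within minutes to activity or to handling of cells, were higher in PN in part. Of 18 tested 9 rose and 0 fell (median log2 change 1.56), and 6 of those that rose were below 1 FPKM in every E11.5 library. Fos was at 1.09, 16.4 and 7.0 FPKM at E11.5 and 175, 112 and 158 FPKM in PN, with E11.5 a lowest (log2 change 4.47, SE 0.64, limma, adjusted p = 0.000993). Nr4a1, an orphan nuclear receptor, was at 0.481, 0 and 0.598 FPKM at E11.5 and 8.86, 8.62 and 8.55 FPKM in PN (log2 change 2.86, SE 0.36, limma, adjusted p = 0.000498). Jund and Ier2 overlapped between stages and did not pass (log2 changes -0.95 and -0.76). The list summed to 138.6 to 236.8 FPKM at E11.5 and to 313 to 436 in PN. The part that sorting played in it was not tested. Of 23 receptor and signalling genes of growth factors 15 were tested, of which 7 rose and 2 fell. Of those that rose, 5 were below 1 FPKM in every E11.5 library. With no filter on low values 6 of 21 rose and 2 fell. Ntrk2, the BDNF receptor TrkB, was at 0.267, 0.717 and 0.166 FPKM at E11.5 and 22.4, 21.2 and 26.8 FPKM in PN (log2 change 4.16, SE 0.36, limma, adjusted p = 9.87e-05). Ntrk3, the receptor for neurotrophin 3, was present at both stages and did not pass, at 16.6, 6.56 and 8.17 FPKM at E11.5 and 17, 10.9 and 19 FPKM in PN (limma, adjusted p = 0.327). Ngfr, the p75 receptor, fell (log2 change -1.39, SE 0.32, limma, adjusted p = 0.0117), and that call was lost without PN c (log2 change -1.24, limma, adjusted p = 0.0532).

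Of 24 tested genes of glucose and lactate metabolism 6 rose and 1 fell. Aldoc, the brain form of aldolase that astrocytes also express, was at 0.27, 3.66 and 1.1 FPKM at E11.5 and 60.0, 148 and 65.7 FPKM in PN (log2 change 5.19, SE 0.53, limma, adjusted p = 0.000193), and Pfkp, a phosphofructokinase, at 0.491, 1.4 and 7.98 FPKM at E11.5 and 42.4, 27.1 and 51.9 FPKM in PN (log2 change 3.66, SE 0.61, limma, adjusted p = 0.00225). Gapdh did not pass and overlapped between stages, at 1771, 1671 and 1452 FPKM at E11.5 and 1832, 1993 and 1606 FPKM in PN (limma, adjusted p = 0.655). Of 19 tested cholesterol synthesis genes 5 rose and 0 fell, and 2 rose without PN b. Fdps, the farnesyl diphosphate synthase, was at 272, 265 and 310.0 FPKM at E11.5 and 765, 832 and 805 FPKM in PN, with little spread (log2 change 1.5, SE 0.21, limma, adjusted p = 0.000859). Of 78 tested oxidative phosphorylation genes 4 rose and 5 fell, below the share over all genes in both directions. Under the common upper quartile 14 rose and 4 fell, and on leaving out single libraries 0 to 10 rose and 1 to 5 fell, so no direction is given for the group. Uqcrh, a subunit of complex III, fell, at 1467, 963 and 1352 FPKM at E11.5 and 467, 607 and 480.0 FPKM in PN (log2 change -1.27, SE 0.25, limma, adjusted p = 0.00466). Of 35 tested proteasome genes 1 rose and 0 fell, also below the shares over all genes. That member was Psmb10, an immunoproteasome subunit (log2 change 1.98, SE 0.36, limma, adjusted p = 0.00348).

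Ribosomal protein genes of the cytosol fell almost throughout. Of 82 genes 79 were tested, 67 fell and 0 rose, with a median log2 change of -1.3. With the common upper quartile 66 fell (median -1.05), and with any single library left out 55 to 68 fell. Reads of these genes can be shared with their many processed pseudogenes, so single values are uncertain. Rpl32, of the large subunit, was at 7272, 5807 and 6693 FPKM at E11.5 and 1754, 1929 and 1635 FPKM in PN, with each PN library far below each E11.5 library (log2 change -1.89, SE 0.21, limma, adjusted p = 0.000284). Rps28, of the small subunit, was at 2343, 1229 and 1363 FPKM at E11.5 and 291, 353 and 258 FPKM in PN (log2 change -2.4, SE 0.29, limma, adjusted p = 0.000407). Rps10 was at 1555, 1099 and 1366 FPKM at E11.5 and 344, 392 and 335 FPKM in PN (log2 change -1.89, SE 0.23, limma, adjusted p = 0.000412). Of the 12 members not called, Rps2 overlapped between stages at 3200.2, 2449 and 1646 FPKM at E11.5 and 1729.6, 2649 and 1468 FPKM in PN (limma, adjusted p = 0.507) and Rpl3 was at 1928, 2269 and 1588 FPKM at E11.5 and 1352, 1517 and 1516 FPKM in PN (adjusted p = 0.241). Rpl26, singled out after its values were seen, lay apart from the group with a log2 change of 1.93 and overlapping stages (limma, adjusted p = 0.163). Of the 10 highest genes at E11.5, 7 had Rpl or Rps symbols, and none of the 10 highest in PN did. The genes with a failed estimate, such as Actb and Tuba1a, were not ranked. Among 76 tested ribosomal protein genes of mitochondria 3 rose and 5 fell (median -0.03), below the shares over all genes in both directions. Under the common upper quartile 10 rose and 2 fell. Without PN a, 0 rose and 2 fell. Whether the 2 lists differ was not tested.

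The Rps28 promoter is shown as an example for this group and not as its typical case. A mycPet-1 peak with a score of 582.05 lay over it, and one with a score of 1372.66 lay over that of Rps19. The window is chr17:33824563-33824812 on GRCm38.p6 (RefSeq), minus strand, and capitals mark CGGAA on either strand.
Rps28: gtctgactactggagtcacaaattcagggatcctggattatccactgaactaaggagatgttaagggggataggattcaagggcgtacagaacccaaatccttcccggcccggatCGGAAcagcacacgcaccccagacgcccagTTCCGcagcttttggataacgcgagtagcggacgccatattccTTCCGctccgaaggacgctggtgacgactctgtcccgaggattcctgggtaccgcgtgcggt
It held the motif at 3 places. The window of Rps10, under a peak with a score of 68.78, held it at 1 place. Among the 59 tested ribosomal protein genes that the promoter set covers, 47 (79.7%) held CGGAA at some start, against 48% of all tested genes with one. Peaks lay over the promoter of 42 of the 59 (71.2%), against 31.2% of all tested genes. Lists that did not fall as a group were above those shares too. CGGAA stood in 72.4% of proteasome, 67.2% of mitochondrial ribosomal and 55.2% of oxidative phosphorylation genes, and peaks over promoters in 41.4%, 35.8% and 46.3%. A link to the fall was not tested. The deposited peak list and RefSeq both describe these promoters, and no change in Pet-1 binding between the stages was measured. In the authors' deposited table of the Pet-1 knockout at E15.5 (NuGEN libraries, a separate set of samples) Rps28 went from 894 to 1736 FPKM and Rpl32 from 1924 to 3626 FPKM, wild type to knockout.

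**Figure D4:**
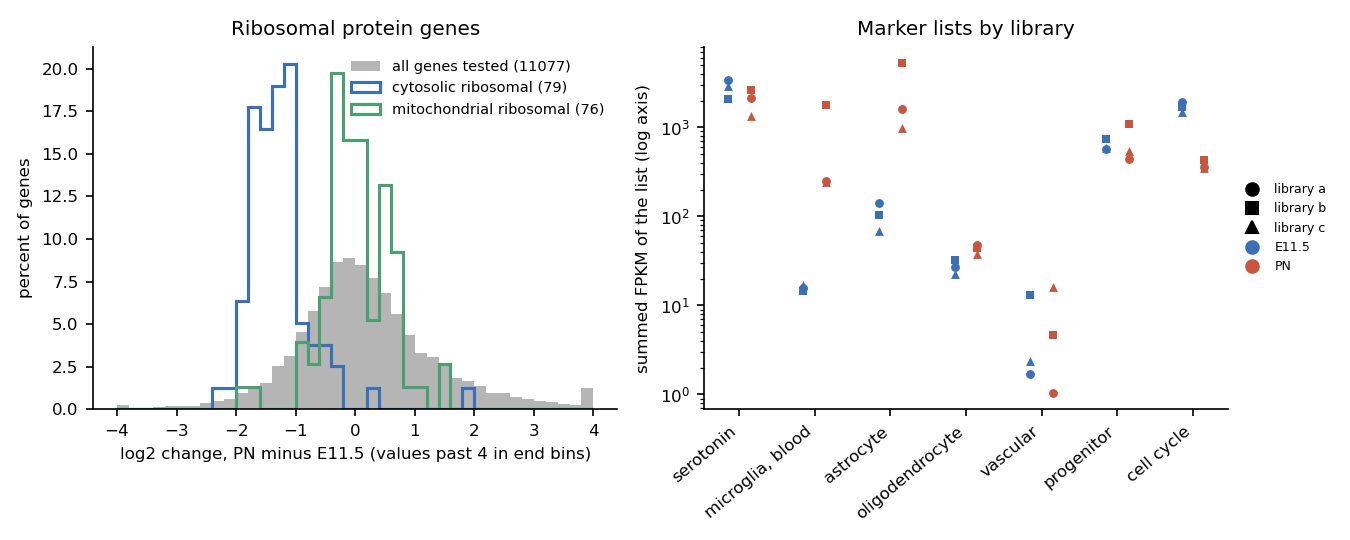
Left, the percent of genes in each bin of log2 change (PN minus E11.5) for all 11077 genes tested (grey), 79 cytosolic (blue) and 76 mitochondrial (green) ribosomal protein genes, where the cytosolic genes centre near -1.30 and the mitochondrial genes near 0. Right, summed FPKM of 7 marker lists in each library on a log axis (E11.5 blue, PN red, symbols for libraries a to c), where PN b has the highest microglia and blood and astrocyte sums, at 1809 and 5231 FPKM.

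Markers of other cells differed between the stages. Of 13 tested microglia and blood genes 11 rose and 0 fell (median log2 change 4.58), and 11 still rose without PN b, with a median of 3.47. Below 1 FPKM in every E11.5 library were 8 of them, and 4 of the astrocyte markers that rose. C1qb, a complement gene of microglia, was at 0.328, 2.12 and 4.31 FPKM at E11.5 and 53.6, 490.0 and 51.2 FPKM in PN (log2 change 5.32, SE 0.83, limma, adjusted p = 0.00157). The chemokine gene Ccl4 was at 0.0809, 0.273 and 0.184 FPKM at E11.5 and 32.4, 151 and 27.2 FPKM in PN (log2 change 5.48, SE 0.60, limma, adjusted p = 0.000266). Both genes were several-fold higher in PN b than in the other PN libraries. Ptprc was below 0.5 FPKM in all libraries, and the haemoglobin genes Hba-a1 and Hbb-b1 stayed below 1.2 FPKM.

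Of 9 tested astrocyte markers 8 rose and 0 fell, and 7 rose without PN b. The list summed to 69.03 to 142.4 FPKM at E11.5 and to 1603, 5231 and 977.8 FPKM in PN a, b and c, of which Apoe, an apolipoprotein of astrocytes and microglia, made up most, at 140.2, 90.4 and 56.2 FPKM at E11.5 and 1244, 4698 and 566 FPKM in PN (log2 change 4.04, SE 0.65, limma, adjusted p = 0.00187). Clu, a secreted chaperone, was at 0.819, 9.02 and 9.42 FPKM at E11.5 and 294, 414 and 316 FPKM in PN (log2 change 5.88, SE 0.60, limma, adjusted p = 0.000183). Fabp7, Aldoc and Rgs10, described above, were likewise highest in PN b. The astrocyte glutamate transporter Slc1a3 was near 0 at E11.5 and at 6.45, 9.37 and 9.63 FPKM in PN (log2 change 3.22, SE 0.34, limma, adjusted p = 0.000214), and Gfap did not exceed 1.04 FPKM in any library. Oligodendrocyte markers summed to 22.66 to 32.17 FPKM at E11.5 and to 38.16 to 48.2 in PN, and 1 of 3 tested members rose. That member was Mbp, myelin basic protein, at 0.461, 2.19 and 3.1 FPKM at E11.5 and 10.1, 6.46 and 7.34 FPKM in PN (log2 change 1.72, SE 0.46, limma, adjusted p = 0.0215), a call lost without PN a, PN b or PN c and with no filter (limma, adjusted p = 0.0597 to 0.0907). Of the members too low to be tested, Olig1 was at 0.755, 4.29 and 4.53 FPKM in PN against at most 0.0228 FPKM at E11.5, Pdgfra reached 1.13 FPKM in PN c, and Sox10 stayed at or below 0.243 FPKM. Vascular and meningeal markers summed to at most 16.31 FPKM, and Col1a1 was at 0 throughout.

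Markers of other transmitters were few. Slc17a8, the vesicular glutamate transporter that many serotonin neurons express, was at 98, 86.1 and 138 FPKM at E11.5 and 75.6, 66.4 and 85.5 FPKM in PN (limma, adjusted p = 0.24). Slc17a7 was at 0 in all 6 libraries and Slc17a6 exceeded 1 FPKM only in PN c. Gad1, an enzyme of GABA synthesis, rose from near 0 to 6.35, 4.01 and 7.81 FPKM (log2 change 2.78, SE 0.34, limma, adjusted p = 0.000483), while Slc32a1, the vesicular GABA transporter, stayed below 0.66 FPKM. Gad2, whose enzyme also makes GABA, was already present at E11.5 at 5.19, 1.18 and 1.44 FPKM. In PN it was at 2.08, 1.52 and 4.87 FPKM, with overlapping groups. Th, the rate-limiting enzyme of catecholamine synthesis, was at 0.0623, 0.0198 and 0 FPKM at E11.5 and 12.1, 64.7 and 3.42 FPKM in PN and highest in PN b (log2 change 3.93, SE 0.80, limma, adjusted p = 0.00599). Dbh and Phox2a, which mark noradrenergic neurons, were at 0 in all 6 libraries, and the dopamine transporter Slc6a3 stayed below 1 FPKM. The part of other cells in the changes reported here was not tested beyond these values.

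Across the lists the shares of members called are set beside those of all genes in the plot of shares by list.

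**Figure D5:**
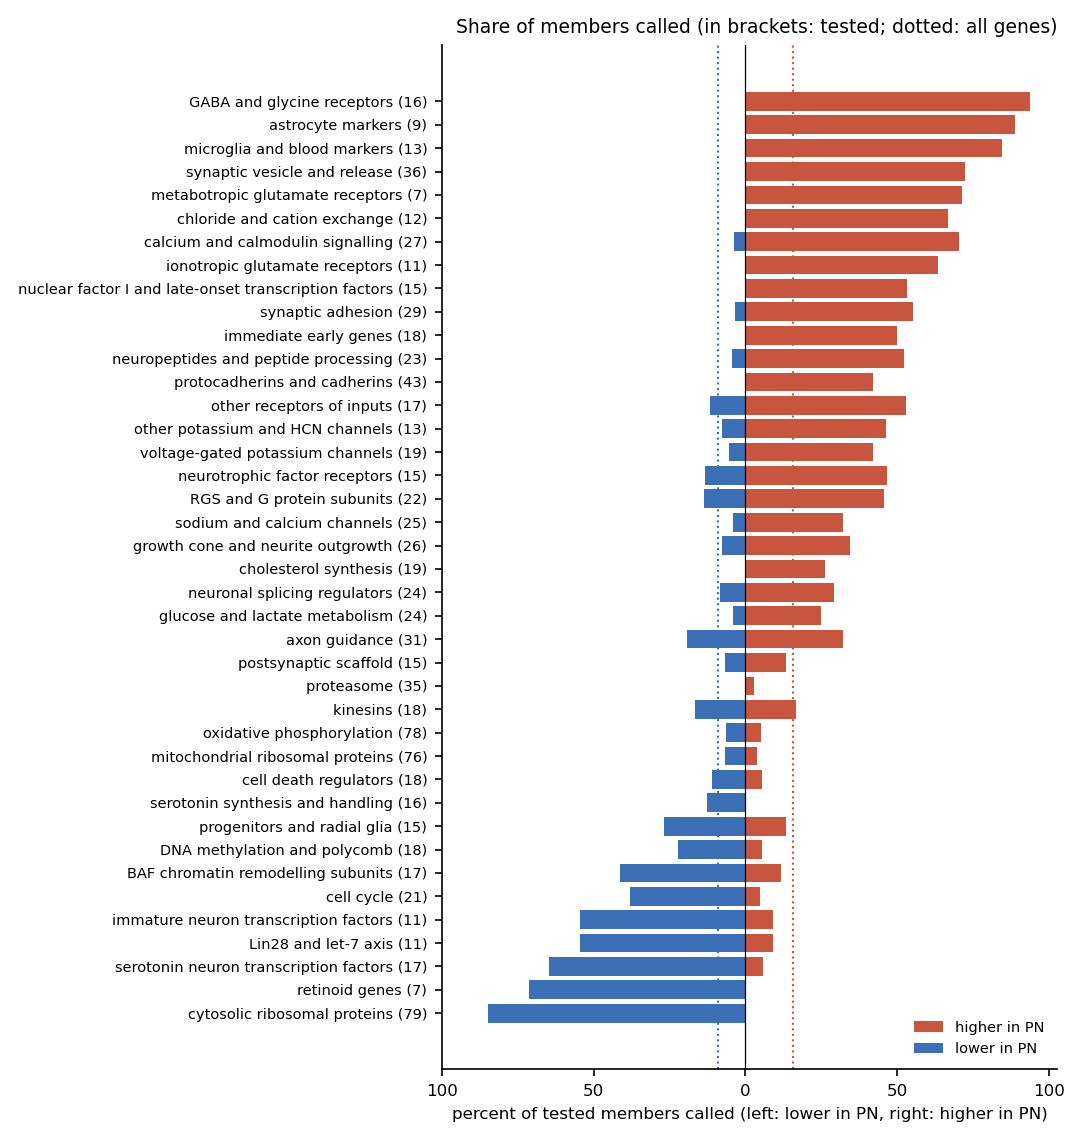
Percent of tested members called higher (red, right) or lower (blue, left) in PN for each list with at least 7 tested members, with the number tested in brackets and dotted lines at the shares over all genes tested (15.8% and 9.18%). Bars for receptors, vesicle genes and glial markers reach far right of the line, and those for ribosomal proteins, retinoid genes and lineage factors far left.

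Outside the lists, the genes with the largest changes included signalling and synaptic genes. Rit2, a neuronal small GTPase, was at 0.584, 0.491 and 3.74 FPKM at E11.5 and 343, 404 and 383 FPKM in PN (log2 change 7.4, SE 0.44, limma, adjusted p = 1.65e-05). Cbln4, a cerebellin secreted at synapses, was near 0.1 FPKM in each E11.5 library and at 71.1, 63 and 63.6 FPKM in PN (log2 change 5.92, SE 0.33, limma, adjusted p = 1.29e-05). Arhgdig, a GDP dissociation inhibitor of small GTPases, was at 9.02, 2.31 and 7.97 FPKM at E11.5 and 627, 903 and 432 FPKM in PN (log2 change 6.55, SE 0.45, limma, adjusted p = 3.67e-05). Ctxn2 and Ppapdc1a rose from below 0.5 FPKM to 137, 158 and 123 FPKM and to 110.3, 98.4 and 78.3 FPKM (limma, adjusted p = 4.55e-06 and 1.01e-05). In the other direction C1ql1, a secreted C1q-like synaptic organiser, was at 192, 149 and 124 FPKM at E11.5 and 0.206, 1.39 and 1.08 FPKM in PN (log2 change -6.4, SE 0.37, limma, adjusted p = 1.34e-05). Uncx, a homeobox factor, was at 70.2, 37.5 and 25.2 FPKM at E11.5 and 0.392, 0.84 and 0.421 FPKM in PN (log2 change -4.76, SE 0.44, limma, adjusted p = 0.000114). Tead2, a DNA-binding partner of YAP, fell from 24, 27.8 and 20.9 to 0.0311, 0.0878 and 0.0902 FPKM (log2 change -4.55, SE 0.35, limma, adjusted p = 5.71e-05). Casp6, an effector caspase known from axon pruning, was at 149, 79.3 and 87.7 FPKM at E11.5 and 3.95, 3.47 and 6.03 FPKM in PN (log2 change -4.25, SE 0.35, limma, adjusted p = 7.07e-05). Small RNA genes such as Snora61, at 0 in every E11.5 library and at 1852, 2405 and 540.0 FPKM in PN, were also among the steepest rises. FPKM of such short genes is uncertain.

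A mycPet-1 peak lay within 5 kb of a start for 21.5% of the genes higher in PN, 40.2% of those lower and 39.1% of those not called, among genes with a promoter in the table, and these shares were not tested against each other. In the authors' deposited table of the knockout at E15.5 (NuGEN libraries, where a call needed the authors' q below 0.05, a 1.5-fold change and a level of 1 FPKM), 3.61% of the genes higher in PN were lower in the knockout, against 6.03% of those lower in PN and 4.3% of all tested. Genes higher in the knockout were 11.1%, 12.4% and 7.86% of the same groups. Among the genes described here, Tac1 went from 2.31 to 13.1 FPKM and Pcp4 from 139.8 to 304 FPKM in that table, wild type to knockout. Slc22a3 went from 8.7 to 0.203 FPKM and Chgb from 638 to 216 FPKM in the authors' deposited table. Sst, Nts, Gata2 and Gata3 were not called in the authors' deposited table, at 262 to 219 FPKM, 8.17 to 11.2 FPKM, 32.6 to 32.6 FPKM and 406 to 321 FPKM (authors' q = 0.527, 0.345, 0.998 and 0.38). The synthesis gene Tph2 and the reuptake transporter gene Slc6a4 were not called by limma between the stages. In that knockout table they went from 218 to 11.1 FPKM and 67.6 to 9.05 FPKM.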

How the data were processed

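Wild-type serotonin neurons of 2 stages were compared, 3 libraries each. The authors deposited FPKM per library, and per the submitters' processing notes TopHat2, Cufflinks, BWA and MACS 1.4.2 were used, with roles not given. The deposited knockout table holds the authors' group FPKM, log2 fold changes, p-values and q-values, per the file headers. The deposited peak list gives the authors' score per peak. Genes with a failed estimate (14) were left out. limma 3.58.1 in R 4.3.3, with a mean-variance trend, was run on log2(FPKM + 1) over the 6 libraries (4 residual degrees of freedom, two-sided), tested on simulated data. Figures and sums used Python 3.11.15, pandas 2.3.3, numpy 2.4.6 and matplotlib 3.10.9. A further 6 columns of per-sample values were not used. Members and lists were chosen with earlier results of these data known. The genes named were all members of the serotonin, Lin28, nuclear factor I and BAF lists. Other lists gave up to 4 called genes per direction with the largest change and up to 2 not called with the highest mean. Outside them came the 12 largest changes each way, at a group mean of at least 5 FPKM, and the 10 highest genes per stage. Defining markers of other cells are given as well. Snap25, Stx1a, Vamp2, Syn1, Syn3, Syp, Penk, Pdyn and Rpl26 are named outside this rule and are not in the counts of named genes. Alternatives numbered 12: another pseudocount (0.1), 2 filters, 2 scalings, no trend and leaving out each library. A few genes of the lists enter the counts and are not reported here by name.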

Additional observations from a re-analysis of the deposited data

How the results depend on the processing

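No gene called in the main analysis was called in the opposite direction under any of the 12 alternatives. Of the 256 genes named by the rule and called, 200 were called under all of those that tested them. The median log2 change of all genes tested was 0.28 with upper quartile scaling and -0.012 with median centring, against 0.06. Leaving out single libraries gave 638 to 959 genes lower in PN, against 1017, with 638, 657 and 643 without PN a, b and c, and 1242 to 1733 higher, against 1752. With 2 libraries left in a stage the fit pools the spread of both. No paired analysis was possible because the matrix columns do not carry the replicate numbers of the labels. The authors' own test and a fit with the third stage were not run: the deposited table compares other stage pairs, and the columns of the third stage match no group by name. Depth is not given, so the precision of low values is unknown.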
